A study of Mus musculus with 25 samples.

Results

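The comparison described here sets cells sorted from the mouse spinal cord 7 days after a contusion against cells sorted in the same way from sham animals, across every gene with enough counts. It uses 6 of the 25 libraries of the series, 3 sham and 3 injured, and tests 24286 of the 43693 genes listed for the sorted cells. All 6 libraries came from mice of genotype GFAP-Cre-/+:R26-tdT-/+, in which a Gfap-driven Cre recombinase switches on the red protein tdTomato in cells that express Gfap or descend from cells that did. Sham mice had a laminectomy at thoracic level T9 and nothing else, and were taken after 7 days. Injured mice had a moderate contusion of 60 kdyn at T9 and were also taken after 7 days. Each library pooled 3 mice, and the labels give neither strain, sex nor age for them. Tissue of the epicenter was digested with papain and trypsin, myelin was removed with beads, and tdTomato-positive cells were collected by fluorescence-activated sorting and labelled astrocytes. Sorted cells from 1 month (3 libraries) and 3 months (2 libraries) after the same injury shared the fit and are shown only beside genes named here.

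Astrocytes keep the fluid around neurons in order: they take up glutamate and potassium, store glycogen, move water and bicarbonate, and listen to transmitters through many receptors. After injury they become reactive, a state long recognised by more of the filament protein Gfap, with larger cell bodies, division near the lesion and, later, a border around it. In the same days blood-borne and resident phagocytes clear myelin and dead cells at the lesion, fibroblasts and vessels grow into it, and ependymal cells, the ciliated lining of the central canal, begin to divide. A library made from sorted cells reports the RNA of whatever passed the gate, so fewer cells of a type and less RNA per cell cannot be told apart in any result below.

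A gene is said to have risen, fallen or been called when edgeR's quasi-likelihood F test gave a Benjamini-Hochberg adjusted p under 0.05 over all 24286 genes tested. Levels are counts per M (CPM) scaled between libraries, and ± marks the SD over the 3 libraries of a group. Total counts were 15.7 to 34.0 M in sham libraries and 31.7 to 44.0 M at 7 days. The 3 injured libraries resembled each other more closely (Pearson r of log2 CPM across genes, 0.961 to 0.968) than the 3 sham libraries did (0.874 to 0.924). Sham replicate 1 stood nearer to the injured libraries (0.920 to 0.937) than to sham replicate 3 (0.900), and sham replicates 2 and 3 correlated with the injured libraries at 0.856 to 0.884. Sham replicate 1 held more microglia and macrophage marker RNA (2448 CPM over the 16 genes) than sham replicates 2 and 3 (712 and 549.7 CPM), and sham replicate 3 was the shallowest library. Gfap, the gene whose promoter drives the Cre, measured 354, 166 and 202 CPM in sham and 1236, 1440.4 and 1135 CPM at 7 days (log2 change 2.40, SE 0.25, adjusted p = 9.4e-06). Every injured library was above every sham library for it.

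The labelled cell type was checked against marker lists. For comparison, 9.87% of all genes tested rose and 8.41% fell. Of 14 astrocyte markers 12 fell and 1, Gfap, rose, and S100b was not called. Their summed level was 7636 to 9505 CPM in sham and 3262 to 3892 CPM at 7 days, and none of them was at 0. Markers of other cells were present in both groups. The 10 oligodendrocyte precursor markers, among them Olig1, Cspg4 and Gpr17, summed to 9862 to 11965 CPM in sham and 9530.0 to 11545 CPM at 7 days. Microglia and macrophage markers summed to 549.7 to 2448 CPM in sham and 6021 to 8983 CPM at 7 days, and 12 of 16 rose. All 10 endothelial markers rose, and their sum was 67.1 to 195 CPM in sham and 555 to 679.9 CPM at 7 days. Fibroblast and mural markers summed to 2324 to 2812 CPM in sham and 4695 to 5216 CPM at 7 days, with 5 of 12 higher and 1 lower at 7 days. Pdgfra, which is also in the precursor list, gave 2152, 2663 and 2133 CPM of these sums in sham. At 7 days Pdgfra gave 1587, 1499 and 1843 CPM. All 10 ependymal markers fell, with a sum of 1293 to 2678 CPM in sham and 542 to 651 CPM at 7 days. Oligodendrocyte markers summed to 477 to 1397 CPM in sham and 1807 to 1909.8 CPM at 7 days, Schwann cell markers to 557 to 1805 CPM in sham and 1046 to 1170.1 CPM at 7 days, and neuron markers to 153 to 207 CPM in sham and 166 to 183 CPM at 7 days. Of 8 tested lymphocyte and granulocyte markers none rose and 2 fell, with a sum of 3.62 to 51.1 CPM in sham and 0.684 to 11.1 CPM at 7 days and Cd8a at 0 in all 6 libraries. Of 5 tested erythrocyte markers none was called, with a sum of 24 to 83.6 CPM in sham and 0.958 to 73.7 CPM at 7 days. The sums of the astrocyte, microglia, endothelial, fibroblast, ependymal and oligodendrocyte lists did not overlap between sham and 7 days. Their part in the changes of single genes below was not tested.

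**Figure D1:**
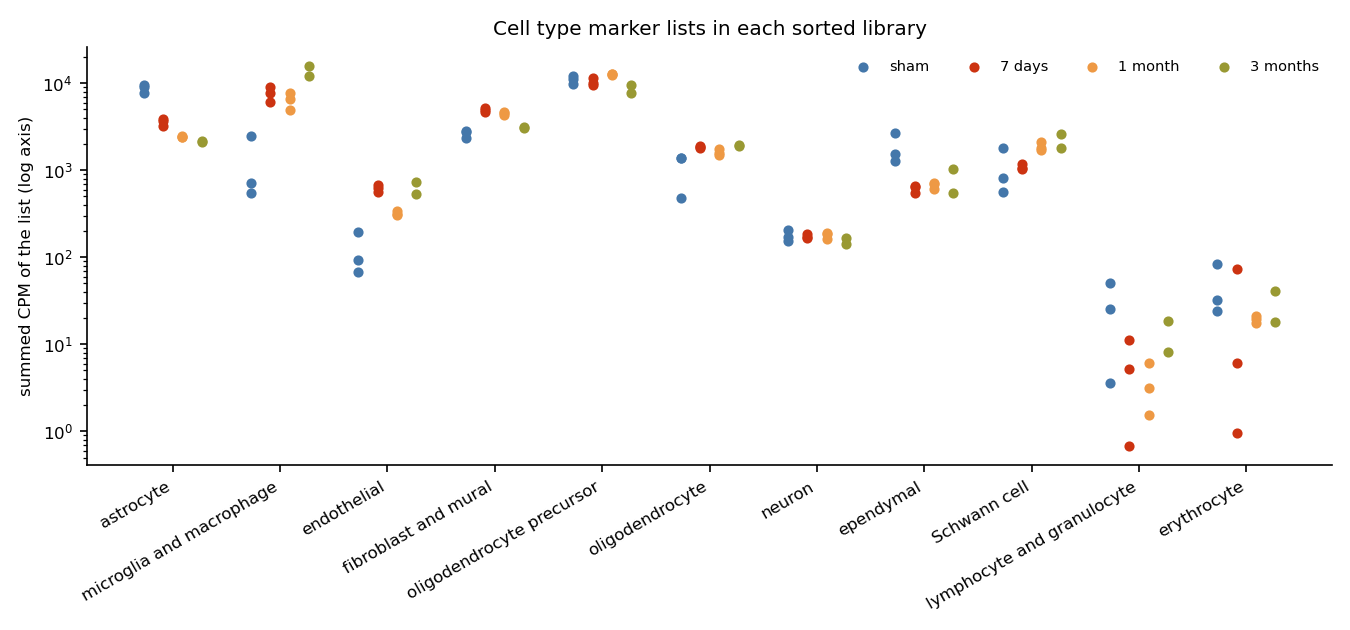
Summed CPM of each cell type marker list (log axis) in every sorted library, with points for sham, 7 days, 1 month and 3 months. The astrocyte and ependymal sums were lower in the 3 seven-day libraries than in all sham libraries, the microglia, endothelial, fibroblast and oligodendrocyte sums were higher, and the oligodendrocyte precursor sums overlapped between the groups.

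Part of the promoter of 3 cilia genes that fell is shown because all 10 ependymal markers fell and a control element of such genes is known. Genes for motile cilia often carry an X-box, the element bound by RFX factors. The pattern GTTGCC, any 2 bases, G, any 2 bases, A was searched on both strands in the 250 bases before each gene's start (RefSeq, GRCm38.p6), and 1.73% of the promoters of all 14834 tested genes with a sequence held it. The share was 3.51% among 1483 genes that fell, 0.946% among 1797 that rose, 3 of 7 among the ependymal markers that fell and had a sequence, and 3 of 29 (10.3%) among the Cfap and Dnah genes that fell, families of cilia genes chosen after the values were seen. A match is a string of letters and not a site shown to be used. Windows around the match are printed from Ccdc153, Pifo and Cfap20, 3 genes that fell, with the match in capitals, 5′ to 3′ on the gene's strand. They lie at chr9:44240501-44240560 on the plus strand, at chr3:106001498-106001539 on the minus strand and at chr8:95434934-95434993 on the minus strand.
Ccdc153: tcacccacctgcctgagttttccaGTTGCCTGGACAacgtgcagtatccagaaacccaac
Pifo: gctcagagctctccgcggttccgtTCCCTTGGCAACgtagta
Cfap20: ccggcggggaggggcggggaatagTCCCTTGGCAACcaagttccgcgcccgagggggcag

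Spp1, the gene with the highest 7-day level among the largest rises, is shown with its promoter because the letters GAGGAAGT, read by PU.1, a factor of myeloid cells, occur in it, in capitals below. They occurred in 4.23% of promoters of genes that rose, 2.02% of those that fell and 2.85% of all. The window lies at chr5:104434861-104435110 on the plus strand (GRCm38.p6).
Spp1: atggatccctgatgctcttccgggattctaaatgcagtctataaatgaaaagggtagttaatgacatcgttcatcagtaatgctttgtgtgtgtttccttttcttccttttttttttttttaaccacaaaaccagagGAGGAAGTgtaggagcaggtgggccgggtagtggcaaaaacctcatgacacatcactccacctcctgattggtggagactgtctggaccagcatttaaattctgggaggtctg

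A further 5 motifs were searched. TCACGTGA, an element of lysosomal genes that contains the core of the E-box, was in 2.06% of the promoters of genes that rose, 0.674% of those that fell and 1.33% of all. TTTCGCG, read by E2F factors in cell-cycle genes, was in 2.11%, 1.28% and 1.27%, in the same order. TGACGTCA, the cyclic AMP element, was in 1.73%, 2.90% and 2.57%. TGACTCA, the AP-1 element, was in 4.34%, 4.65% and 4.38%. CCAAT was in 38.7%, 42.2% and 38.8%. All were searched on both strands, and these shares carry no test.

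Of the 24286 genes tested, 2398 rose (9.87%) and 2042 fell (8.41%), which makes 4440 called (18.3%). Of 16298 coding genes 4099 were called (25.2%), with 2283 higher and 1816 lower. Of 7988 long non-coding genes 341 were called (4.27%), with 115 higher and 226 lower. Among non-coding genes the falls outnumbered the rises, and among coding genes the rises outnumbered the falls. The 2398 genes that rose had a median change of 1.20 on the log2 scale, from a median level of 25.1 to 61.0 CPM, and the 2042 that fell had a median of -1.34, from 44.7 to 18.1 CPM. Genes that rose took 12.8 to 15.2% of all counts in sham libraries and 28.7 to 31.1% at 7 days, and genes that fell took 23.9 to 25.3% and 9.74 to 10.8%. Called or not, all 3 injured libraries were above all 3 sham libraries for 4591 genes (18.9%) and below them for 3859 (15.9%). Changes of at least 8-fold were made by 315 of the rises and 144 of the falls. Without sham replicate 1, 3326 genes rose and 2178 fell. The number of genes that fell was 1181 without 7-day replicate 2 and 1355 without 7-day replicate 3. A test against a change of 1.5-fold left 1131 rises and 1019 falls.

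**Figure D2:**
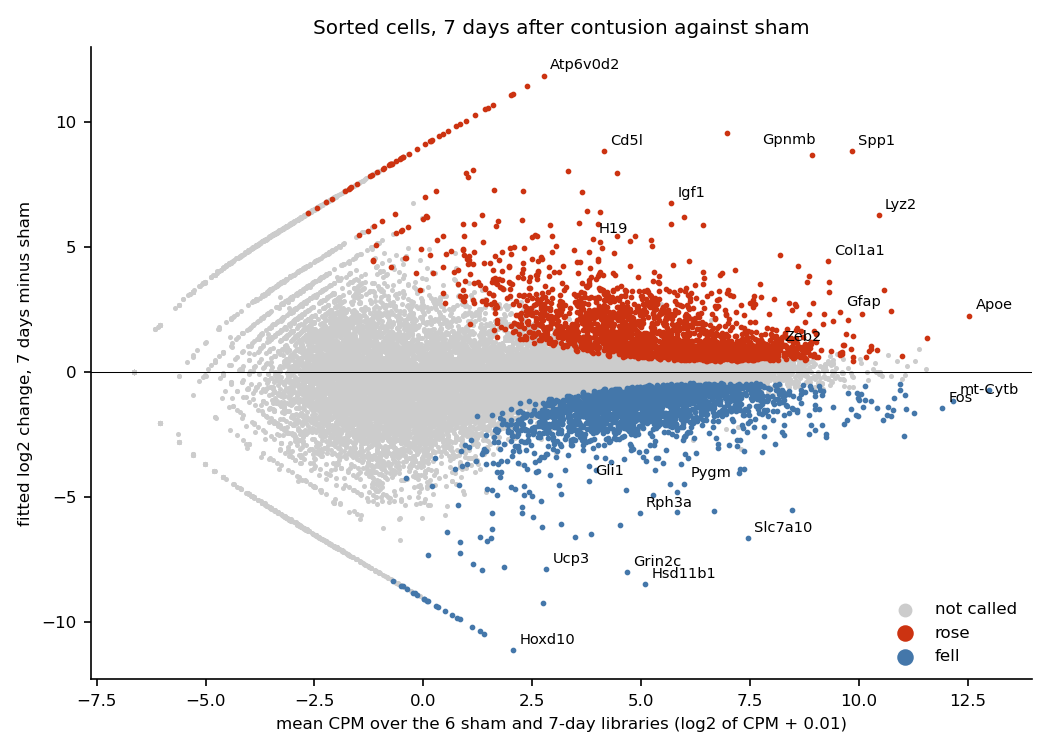
Fitted log2 change, 7 days minus sham, of each of the 24286 genes tested against its mean CPM over the 6 libraries (log2 of CPM + 0.01); red points rose, blue points fell, grey points were not called. Points on the straight outer edges are genes with 0 counts in one of the groups, whose fitted change is not a bound; Spp1, Gpnmb and Lyz2 stand high on both axes and Slc7a10 stands low.

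The largest rises outside the gene lists counted below included genes of phagocytes and lysosomes. Spp1 encodes osteopontin, a secreted ligand of integrins and CD44 made by macrophages in lesions. Its levels were 5.8, 2.28 and 4.18 CPM in the 3 sham libraries and 1276, 2202 and 2022 CPM at 7 days (ENSMUSG00000029304.14, chromosome 5, 104435118 to 104441050, GRCm38). All 3 injured libraries lay far above all 3 sham libraries, 448-fold by the fitted change (log2 change 8.81, SE 0.40, adjusted p = 5.3e-09). Gpnmb, a glycoprotein of lysosome-rich phagocytes, was at 3.06, 0.201 and 4.12 CPM in sham and 588, 1212 and 1096 CPM at 7 days (ENSMUSG00000029816.10, chromosome 6, 49036546 to 49070929). The groups did not overlap, and sham replicate 2 was the lowest of the 6 (log2 change 8.67, SE 0.68, adjusted p = 1.1e-06). Atp6v0d2, a subunit of the lysosomal proton pump best known from osteoclasts and macrophages, had 0 counts in all 3 sham libraries and reached 11.3, 15.4 and 14.1 CPM at 7 days. Set against a floor of 3 counts per library, that is at least 108-fold higher. It stayed at 14.4, 16.1 and 16.6 CPM at 1 month.

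Cd5l encodes a secreted scavenger protein of macrophages. It measured 0.187, 0 and 0 CPM in sham and 15.6, 58.4 and 31.3 CPM at 7 days, high in every injured library though these differed among themselves. Between 7 days and 1 month 633 of all genes tested differed (2.61%), 265 of them (1.09%) higher and 368 (1.52%) lower at 7 days. Cd5l was at 3.02, 1.93 and 0.635 CPM at 1 month, and the difference of 7 days from 1 month was itself called (log2 difference 4.23, adjusted p = 0.0046, edgeR's quasi-likelihood test). Cyp1b1, a cytochrome that oxidises steroids and retinoids, went from 0.437, 0 and 0 CPM to 24.8, 28.9 and 21.2 CPM. Sham replicates 2 and 3 had none. Hpse, the heparanase that trims heparan sulfate from the matrix, went from 0.405, 0.403 and 0 CPM to 16.3, 34.6 and 28.8 CPM. Here too no sham library reached the injured range (log2 change 6.43, SE 0.55, adjusted p = 2e-06).

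The other places included families of cell-surface proteins. Ms4a7, Ms4a4a and Ms4a14 belong to the membrane-spanning Ms4a family of immune cells. Ms4a7 was at 0.437, 0 and 0 CPM in sham and 29.3, 57.3 and 43.4 CPM at 7 days, and Ms4a4a and Ms4a14 had no count in sham and means of 8.31 and 8.08 CPM at 7 days, at least 66.2-fold and 64.3-fold higher. Of 19 Ms4a genes listed, a set chosen after the values were seen, 9 had enough counts to be tested. Of these 6 rose and none fell, against 9.87% risen among all genes. Members without counts in sham could pass the count filter only through injured libraries, so these counts favour rises. Cd200r4 and Cd300lf are receptors of the immunoglobulin family on myeloid cells. Cd200r4 had no count in sham and 7.97, 13.9 and 9.05 CPM at 7 days, at least 82.1-fold higher, and Cd300lf went from 0.156, 0 and 0 CPM to 7.4, 11.1 and 10.5 CPM. Stra6l and Mcoln3, a retinol-binding-protein receptor and a lysosomal calcium channel, both had 0 counts in sham and means of 5.59 and 5.34 CPM at 7 days, at least 44.6-fold and 42.5-fold higher. Wfdc17, a small secreted inhibitor made by macrophages, went from 0.187, 0 and 0 CPM to 19.2, 23.7 and 17 CPM. The last of the 15, Pmp2, a lipid-binding protein of peripheral myelin, went from 0.0936, 0 and 0 CPM to 5.61, 7.06 and 5.57 CPM, and 86.9% of its exons are shared with the model Gm37389 on the same strand, so its reads cannot be assigned with certainty.

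The largest falls included transporters, channels and enzymes of resting astrocytes, with a few genes of position and muscle. Slc7a10, the transporter of small neutral amino acids such as D-serine, was at 244, 479.9 and 314 CPM in sham and 4.09, 3.53 and 2.91 CPM at 7 days (ENSMUSG00000030495.12, chromosome 7, 35186385 to 35201114). No injured library reached 5 CPM, and the fall was 98.8-fold by the fitted change (log2 change -6.63, SE 0.28, adjusted p = 5e-09). Dao, the oxidase that breaks down D-serine, fell beside it, from 17.4, 26.1 and 23.1 CPM to 0.535, 0.164 and 0 CPM. Etnppl, an enzyme of phosphoethanolamine breakdown found in astrocytes, went from 51.4, 35.2 and 47.6 CPM to 0.819, 0.794 and 0.31 CPM. Ucp3, a mitochondrial carrier better known from muscle, went from 10.1, 21.4 and 10.7 CPM to 0.126, 0 and 0.0476 CPM. In all 4 of these genes the highest injured library lay below the lowest sham library.

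Rph3a encodes rabphilin, a vesicle protein that binds Rab GTPases. It measured 47, 81.8 and 55 CPM in sham and 1.13, 0.986 and 1.52 CPM at 7 days (ENSMUSG00000029608.10, chromosome 5, 120940499 to 121010092), a fall of 50.1-fold (log2 change -5.65, SE 0.32, adjusted p = 4.2e-08). At 1 month it was at 34.8, 22.1 and 26.5 CPM, and the difference between 7 days and 1 month was called (log2 difference -4.50, adjusted p = 4.5e-06, edgeR). The potassium channel subunits Kcnc4 and Kcng4 went from 22.1, 37.8 and 25.3 CPM to 0.693, 0 and 0.286 CPM and from 24.1, 17.8 and 10.7 CPM to 0, 0.575 and 0.191 CPM. Neither had an injured library above 1 CPM. Atp13a4, a transport ATPase, went from 46.3, 202 and 84.6 CPM to 3.81, 1.89 and 1.26 CPM, with sham replicate 2 standing above the other sham libraries. Aqp6, a channel for water and anions, was at 2.68, 8.93 and 4.12 CPM in sham and had no count at 7 days, at least 63.4-fold lower. Acvr1c, a receptor for activins and Nodal, Smyd1, a muscle methyltransferase, Kirrel2, an adhesion protein, D930020B18Rik and the homeobox gene Hoxa11 each averaged 5.47 to 13.1 CPM in sham and no more than 0.194 CPM at 7 days. St8sia5, a sialyltransferase, went from 14.1, 9.33 and 4.84 CPM to 0.378, 0.192 and 0 CPM, but its call was lost without sham replicate 1 (adjusted p = 0.0509), 7-day replicate 2 (0.0808) or 7-day replicate 3 (0.069).

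**Figure D3:**
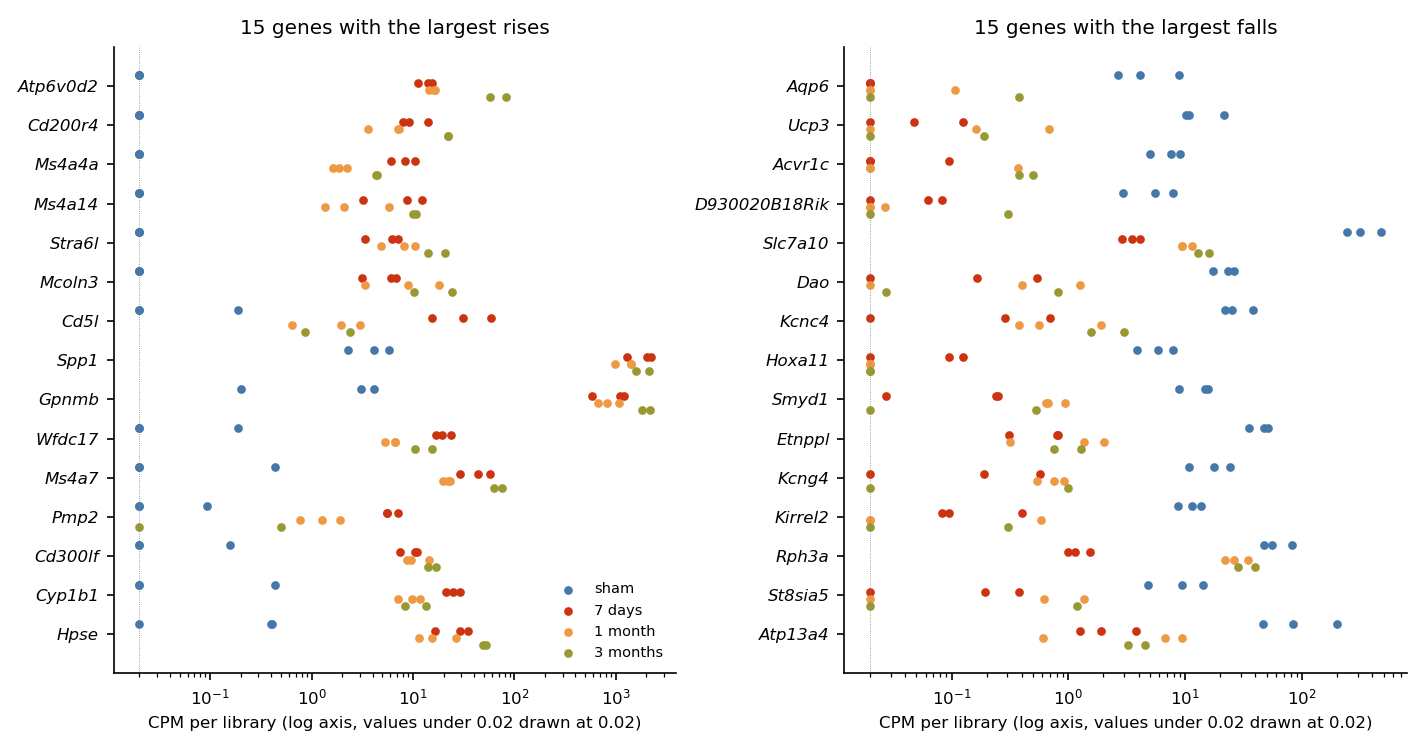
CPM per library (log axis, values under 0.02 drawn at 0.02) of the 15 largest rises and 15 largest falls, with points for sham, 7 days, 1 month and 3 months. For each of the 30 genes the 3 seven-day points lie wholly on one side of the 3 sham points, as the naming rule required; Cd5l was lower again and Rph3a higher again at 1 month.

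Among the most abundant genes, lipid and lysosome genes rose while immediate early genes and a mitochondrial transcript fell. Apoe, the main lipid carrier of the cord, went from 2486, 1676 and 2052 CPM to 8097, 11751 and 9576 CPM, with no overlap (log2 change 2.24, SE 0.23, adjusted p = 1e-05). Lyz2, the lysozyme of myeloid cells, went from 41.2, 8.49 and 59.7 CPM to 1899, 3568 and 2848 CPM. Cathepsins Ctsd and Ctsb, proteases of the lysosome, went from 478, 186 and 183 CPM to 1987, 3270.1 and 2979 CPM and from 710.4, 376 and 524 CPM to 2177, 3442 and 3068 CPM. In each of these 4 genes all injured libraries were higher than all sham libraries. Eef1a1, the elongation factor that brings aminoacyl-tRNA to the ribosome, rose from 2125, 1091 and 1908 CPM to 3892, 4343 and 4907 CPM. The immediate early genes Fos, Egr1 and Jun, which respond within minutes to activity and also to handling of cells, were all lower at 7 days. Fos was at 7277, 3015 and 6544 CPM in sham and 2093, 1954 and 2138 CPM at 7 days, Egr1 at 3809.5, 2548 and 4798 CPM and 1273, 1115 and 1214 CPM, and Jun at 3218, 2502 and 3864 CPM and 1172, 1102 and 1134 CPM. All 3 were again lower at 7 days than at 1 month (log2 differences -1.10, -1.50 and -1.07, adjusted p = 0.031, 0.0019 and 0.0051, edgeR). The mitochondrial gene mt-Cytb, a subunit of respiratory complex III, fell from 5959.8, 4562 and 8386 CPM to 3379, 2771 and 2406 CPM.

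A total of 44 gene lists were then counted against the background of 9.87% risen and 8.41% fallen among all genes, whose median log2 change was -0.06. Coding genes were called more often: 2283 of 16298 rose and 1816 fell, 25.2% called. Most list members are coding, so lists look more changed beside all genes than beside coding genes. No list carries a test of its own, and counts of 4 or fewer members often moved by 1 to 3 when a library was left out. The lists were chosen with earlier results of these data known, so their shares are not independent of those results. The lists of normal astrocyte duties are given first.

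Receptors for transmitters had the highest share of falls of the 44 lists: 18 of 27 fell, 1 rose, and the median change was -1.36. Grin2c, an NMDA receptor subunit of astrocytes, had levels of 40.9, 81.3 and 31.3 CPM in sham and 0, 0.383 and 0.191 CPM at 7 days (log2 change -8.00, SE 0.79, adjusted p = 7.2e-06). It was lost almost wholly in every injured library, 256-fold by the fitted change. Ntsr2, a neurotensin receptor of astrocytes, fell from 289 ± 89.1 to 19.6 ± 4.31 CPM, and the GABA-A subunits Gabrb1, Gabra2 and Gabrg1 fell from 137 ± 52.2 to 14.5 ± 4.05 CPM, 47.9 ± 33.1 to 6.12 ± 2.93 CPM and 66.7 ± 12.9 to 18.6 ± 5.29 CPM. The adrenergic receptors Adra2a, Adra1a, Adra1b and Adrb1 fell as well, Adra2a from 109 ± 5.34 to 18.6 ± 4.59 CPM. Adenosine receptors fell too, Adora2b from 44.5 ± 3.15 to 4 ± 1.22 CPM and Adora1 from 139.7 ± 28.1 to 52.4 ± 9.66 CPM. Gria1, Gria2 and the purine receptor P2rx7 were not called, at 111 ± 8.36 CPM in sham and 136 ± 9.74 CPM at 7 days for the last. Htr2b, a serotonin receptor also found on microglia, was the member that rose, from 0.437, 0.369 and 0 CPM to 5.16, 11.1 and 7.1 CPM.

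Among ion channels and pumps, 16 of 30 channels fell and 3 rose (median -0.77), and 9 of 22 pumps and acid transporters fell and 3 rose (median -0.49). The count of channels that fell was 9 without 7-day replicate 2. Kcnj10, the inward rectifier Kir4.1 that clears potassium, fell from 723 ± 186 to 424 ± 33.8 CPM, a smaller change than that of Kcnk1 (TWIK-1), from 182 ± 23.5 to 29.1 ± 7.77 CPM, or of Trpm3, a steroid-gated cation channel, from 68.9 ± 63.9 to 9.23 ± 0.933 CPM. Kcnn2, a calcium-gated potassium channel, fell from 22.9, 21.1 and 35.1 CPM to 3.62, 3.04 and 2.81 CPM. Scn7a, a sodium sensor, had a mean of 281 CPM in sham and 33.3 CPM at 7 days and was not called. Clic1, Ano6 and the calcium channel subunit Cacna2d1 rose, Clic1 from 98.2, 43.6 and 53.7 CPM to 121, 130.5 and 154 CPM. The Clic1 call was lost in a test against 1.5-fold (adjusted p = 0.0963). Among pumps, Car14, a membrane carbonic anhydrase, fell from 50, 44.5 and 51.6 CPM to 2.83, 1.59 and 1.21 CPM, and the bicarbonate carrier Slc4a4 fell from 507 ± 84.5 to 118 ± 29.5 CPM. The lactate exporter Slc16a3 rose from 5.98 ± 3.29 to 21.5 ± 5.59 CPM, the chloride importer Slc12a2 from 116 ± 7.51 to 206 ± 13.9 CPM, and Fxyd7, a pump regulator, from 4.9, 3.79 and 13.1 CPM to 27.2, 32.8 and 25.6 CPM.

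None of the 24 tested transcription factors of astrocyte identity rose and 11 fell (median -0.69; 7 without 7-day replicate 1 or 2). Sox9, which sets glial fate, fell from 282 ± 162 to 68.1 ± 13.8 CPM, and Id4, a helix-loop-helix inhibitor, from 174 ± 66.2 to 76.3 ± 6.68 CPM. Etv4 and Etv5, targets of fibroblast growth factor signalling, fell from 128 ± 46.1 to 38.4 ± 9.21 CPM and 234 ± 7.49 to 131 ± 21.6 CPM. The nuclear factors Nfia, Nfib and Nfix were not called, and Nfia was at 195 ± 36.6 CPM in sham and 187 ± 24.2 CPM at 7 days. Growth factor receptors fell too: Fgfr3, an astrocyte marker, fell from 498, 580.0 and 442 CPM to 104, 95.6 and 86.9 CPM, Egfr from 25.4 ± 9.93 to 6.59 ± 2.22 CPM and Fgfr1 from 145 ± 33.7 to 90.4 ± 4.82 CPM, and 7 of 27 genes of the fibroblast and epidermal growth factor list fell while 2 rose (median -0.38; 4 fell without 7-day replicate 2). The ligands Tgfa and Btc were the 2 that rose, Tgfa from 204, 204 and 196 CPM to 292, 266 and 323 CPM, a call lost without 7-day replicate 1 (adjusted p = 0.0552) or 3 (0.0599).

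In the Notch pathway, through which neighbouring cells hold each other in a glial state, 9 of 22 genes fell and 2 rose (median -0.48). Targets and modifiers fell: Hes5 from 10.7, 12.4 and 1.69 CPM to 0.661, 0.52 and 1.6 CPM, Hes1 from 38.8 ± 4.7 to 13.2 ± 1.01 CPM, Heyl from 17.5 ± 5.37 to 4.16 ± 0.396 CPM, Nrarp from 31.3 ± 10.2 to 9.36 ± 0.234 CPM and the fringe enzyme Lfng from 113 ± 28.6 to 21.7 ± 0.879 CPM. Hes5 was not called without sham replicate 2 (adjusted p = 0.0605) or 7-day replicates 1 (0.0732) or 2 (0.0892). The receptors Notch1 and Notch2 were not called, with Notch1 at 379 ± 9.29 CPM in sham and 394 ± 23.8 CPM at 7 days. Notch4 and Dll4, the receptor and ligand of vessels, were the 2 that rose, Notch4 from 5.51 ± 1.73 to 22.3 ± 5.51 CPM and Dll4 from 1.62, 1.51 and 0 CPM to 7.18, 6.82 and 8.81 CPM. The Dll4 call was lost without any of the 3 seven-day replicates (adjusted p = 0.0726, 0.0749 and 0.0963 for replicates 1 to 3). Endothelial markers rose in the same libraries, as given above.

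The Hedgehog pathway patterns the cord and keeps a low tone in adult astrocytes. None of its 18 genes rose and 5 fell (median -0.66). Gli1, the most direct readout of the pathway, was at 16.3, 50.5 and 12.3 CPM in sham and 2.36, 0.986 and 0.548 CPM at 7 days (log2 change -4.36, SE 0.70, adjusted p = 0.00038). The highest injured library was below the lowest sham library. Gli2 fell from 28.5 ± 13.5 to 3.79 ± 1.92 CPM, the receptor Ptch1 from 218 ± 24 to 72.9 ± 3.31 CPM, the co-receptor Boc from 74 ± 21.2 to 18.9 ± 3.43 CPM and Gas1 from 58.8 ± 11.8 to 36.7 ± 7.56 CPM. The ligand Dhh had means of 6.93 CPM in sham and 31.1 CPM at 7 days and Shh 0.233 and 3.07 CPM, and neither was called. Without sham replicate 3, 2 members rose.

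Astrocyte proteins that act on synapses gave 5 falls and 2 rises of 22 (median -0.25). Gpc5, a glypican of mature astrocytes, went from 64.4, 80.1 and 80.1 CPM to 2.83, 1.37 and 3.29 CPM. It was at 20.8, 17.7 and 27.2 CPM at 1 month, and 7 days differed from 1 month (log2 difference -3.13, adjusted p = 0.0002, edgeR). Sparcl1 (hevin) fell from 2367 ± 153 to 893 ± 65 CPM, while its relative Sparc rose from 959 ± 237 to 1782 ± 155 CPM. Thbs2, a thrombospondin, rose from 38.8, 37.3 and 52.8 CPM to 182, 187 and 246 CPM. The falls numbered 3, 2 and 3 without 7-day replicates 1, 2 and 3.

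Hox genes are expressed in blocks along the body axis, with the highest paralog numbers in the lumbar and sacral cord. Of 36 Hox genes tested none rose and 14 fell. Among paralogs 1 to 5, 4 of 15 fell (median -0.80), and among paralogs 6 to 9, 5 of 12 (median -0.57). Among paralogs 10 to 13, 5 of 9 fell. Their median of -7.72 was the fitted change of Hoxc12, not called, with a mean of 0.786 CPM in sham and 0 at 7 days. The fitted change of a gene without counts in a group is not a bound, so this median does not measure the size of the fall. Hoxd10 was at 5.08, 8.56 and 11.4 CPM in sham and had no count at 7 days, at least 101-fold lower, and none at 1 month. Hoxd11 was at 1.84, 1.85 and 2.36 CPM in sham and likewise had no count, at least 24.4-fold lower. Hoxc11 was at 4.27, 6.81 and 4.12 CPM in sham and 0, 0 and 0.0476 CPM at 7 days, and Hoxa10 at 11.6, 27.1 and 9.02 CPM and 1.86, 1.81 and 2.5 CPM. Hoxc10 was the exception, at 17, 27.1 and 21.3 CPM in sham and 15.8, 14.3 and 16.5 CPM at 7 days, and was not called. The summed level of paralogs 10 to 13 was 45.2 to 83.3 CPM in sham, 16.1 to 19.1 CPM at 7 days and 18.0 to 23.0 CPM at 1 month. The labels give T9 for both groups and no length of cord taken, so the segments sampled and the injury cannot be told apart here. In the list of 31 Hox genes chosen for this comparison, 13 fell, and 7 did without 7-day replicate 2 or 3.

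**Figure D4:**
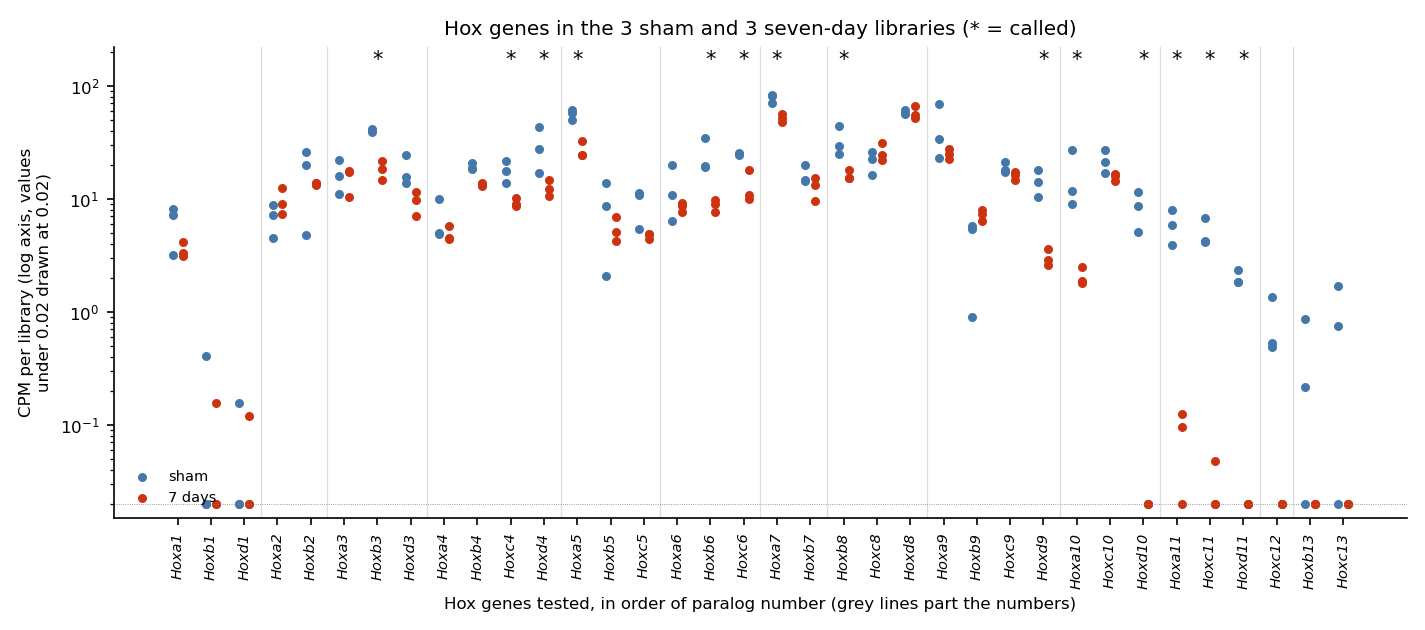
CPM per library (log axis, values under 0.02 drawn at 0.02) of the 36 Hox genes tested, in order of paralog number, for the 3 sham and 3 seven-day libraries; an asterisk marks a called gene. Hoxd10, Hoxd11, Hoxa11 and Hoxc11 were at or near 0 at 7 days, and Hoxc10 was not; Hoxb1 and Hoxd1 were near 0 in both groups.

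Motile cilia belong to ependymal cells, which a Gfap-driven Cre can also label. All 10 ependymal markers fell, among them Foxj1, the master factor of motile cilia, from 507 ± 381 to 162 ± 19.1 CPM, Ccdc153 from 314, 188 and 268 CPM to 40.4, 33.2 and 44.7 CPM and Pifo from 42.1 ± 19.2 to 12 ± 0.505 CPM. Families chosen after the values were seen behaved alike: 24 of 26 Cfap genes fell (median -1.68) and 11 of 15 Dnah genes, the heavy chains of axonemal dynein, fell (median -1.53), with no rise in either. Among all genes tested 8.41% fell. Sox2, which other glia also make, changed least of the 10, from 339 ± 121 to 207 ± 23.8 CPM.

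Metabolic genes moved in both directions. Of 20 glycogen genes 5 fell and 1 rose (median -0.50; 3 fell without each of the 3 seven-day replicates). Pygm, the glycogen phosphorylase of muscle and astrocytes, went from 115, 118 and 129.5 CPM to 6.71, 6.82 and 2.98 CPM (log2 change -4.46, SE 0.35, adjusted p = 8.8e-07). The liver form Pygl moved the other way, from 12.4, 8.15 and 6.29 CPM to 14.4, 24.7 and 14.8 CPM, a call lost without 7-day replicate 2 (adjusted p = 0.224) and sham replicates 2 (0.0933) or 3 (0.103). Phkg1, a phosphorylase kinase subunit, fell from 88.5 ± 30.2 to 16.1 ± 3.31 CPM, and Ppp1r3c, which targets a phosphatase to glycogen, from 103 ± 25.9 to 29.4 ± 4.09 CPM. The brain form Pygb was at 291 ± 122 CPM in sham and 187 ± 9.6 CPM at 7 days and was not called. Of 27 genes that break down branched-chain amino acids and glutamate, 6 fell and 1 rose (median -0.29). Prodh, the proline dehydrogenase, went from 64.4, 67.4 and 60.3 CPM to 6.71, 5.61 and 3.95 CPM, Ivd fell from 134 ± 18.6 to 47.4 ± 2.81 CPM, and the GABA transaminase Abat from 212 ± 90.1 to 103 ± 11.3 CPM. Glul, the glutamine synthetase of astrocytes, was at 479.8 ± 234 CPM in sham and 319 ± 27.1 CPM at 7 days and was not called.

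Fat, peroxisome and folate genes were counted against the 18.3% of all genes, and 25.2% of coding genes, that were called. Fatty acid oxidation gave 3 rises and 2 falls of 25 (median -0.09), and 22 of 25 peroxisome genes were not called while 3 fell (median -0.02). Acsbg1, an acyl-CoA synthetase of astrocytes, went from 268, 324 and 297 CPM to 35.7, 30.5 and 33.1 CPM, and Eci2 from 60.2, 61.8 and 41.4 CPM to 89.4, 76.2 and 85.3 CPM. The Eci2 call was lost without sham replicate 3 (adjusted p = 0.0641) or 7-day replicate 1 (0.083). Serine, glycine and folate metabolism gave 4 rises and 2 falls of 18 (median 0.28). A pair of folate enzymes with the same reaction in different compartments parted: Aldh1l1, the cytosolic astrocyte marker, fell from 74.4, 90.6 and 74.6 CPM to 28.3, 27.4 and 23.3 CPM, and its mitochondrial relative Aldh1l2 rose from 36.4 ± 5.89 to 119 ± 14.9 CPM. Shmt1 and Tyms, which serve thymidylate synthesis, rose, Shmt1 from 9.86, 6.74 and 6.29 CPM to 27.5, 29.2 and 32.8 CPM and Tyms from 9.95 ± 3.02 to 23.8 ± 4.87 CPM.

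Hormone-linked genes fell more often than they rose. Of 24 glucocorticoid-responsive genes 11 fell and 4 rose (median -0.67). Hsd11b1, the reductase that makes active glucocorticoid inside cells, was at 63.1, 57 and 84 CPM in sham and 0.378, 0.137 and 0.0715 CPM at 7 days (log2 change -8.49, SE 0.51, adjusted p = 6.2e-08). At 1 month it was still low, at 1.04, 2.17 and 1.13 CPM, and higher than at 7 days (adjusted p = 0.0038, edgeR). Tsc22d3 (GILZ) fell from 127 ± 66.4 to 53.4 ± 9.32 CPM and Per1 from 147 ± 38.2 to 75.4 ± 9.31 CPM, while Fkbp5, which dampens the receptor, rose from 28.5, 15.2 and 6.11 CPM to 56.4, 59.7 and 59.7 CPM and Sgk1 from 128 ± 29.1 to 260.1 ± 31.5 CPM. The receptor gene Nr3c1 was at 211 ± 11.6 CPM in sham and 216 ± 23.2 CPM at 7 days and was not called. Of 30 nuclear receptors 10 fell and 2 rose (median -0.55; 6 fell without 7-day replicate 2 or 3). The clock repressor Nr1d1 went from 57.9, 125 and 148 CPM to 22.6, 18.1 and 15.8 CPM, and at 1 month was at 100.3, 100.2 and 80.3 CPM (7 days minus 1 month -2.31 log2, adjusted p = 0.001, edgeR). The mineralocorticoid receptor Nr3c2 fell from 46.3 ± 10.6 to 9.39 ± 1.2 CPM and the thyroid receptor Thrb from 38.8 ± 8.3 to 13.5 ± 3.36 CPM. Of 24 retinoid and thyroid genes 4 rose and 5 fell (median -0.03). Dio2, which makes active thyroid hormone, fell from 37.2 ± 11.7 to 9.94 ± 1.66 CPM, whereas Cyp26b1, which destroys retinoic acid, rose from 12.5 ± 2.27 to 28.9 ± 2.34 CPM. Stra6 rose from 1.53, 0.839 and 0.303 CPM to 4.31, 5.34 and 6.29 CPM and Rbp4 fell from 5.24, 4.93 and 9.08 CPM to 1.2, 2.16 and 1.64 CPM. Both calls were lost without 7-day replicates 2 (adjusted p = 0.056 and 0.0541) or 3 (0.0642 and 0.0901), and that of Rbp4 also without sham replicate 3 (0.0618) or 7-day replicate 1 (0.0989).

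Among 23 genes of metal handling 7 rose and 6 fell (median 0.25). The metallothioneins Mt1, Mt2 and Mt3, which bind zinc and copper, fell from 531 ± 247 to 191 ± 22.4 CPM, 418 ± 213 to 179 ± 41.1 CPM and 572 ± 262 to 188 ± 26.4 CPM, and the zinc carrier Slc39a12 fell from 351, 209.9 and 225 CPM to 40.8, 32.6 and 28.2 CPM. Several iron genes rose: the ferritin chains Ftl1 from 333 ± 119 to 1382 ± 276 CPM and Fth1 from 627 ± 293 to 1192 ± 173 CPM, the exporter Slc40a1 (ferroportin) from 7.87 ± 7.16 to 40 ± 4.05 CPM, and Slc11a1, the metal pump of phagosomes, from 18.9, 7.08 and 6.9 CPM to 52.3, 60.8 and 60.3 CPM. The transferrin receptor Tfrc was at 81.7 ± 10.7 CPM in sham and 91.5 ± 4.21 CPM at 7 days and was not called. Of 26 glutathione genes and NRF2 targets 7 rose and 3 fell (median 0.10). Hmox1, haem oxygenase, rose from 28.4, 14.5 and 16.8 CPM to 69.3, 88.6 and 67.4 CPM, while the glutathione transferase Gstm1 fell from 217, 155 and 203 CPM to 27.7, 25.8 and 25.4 CPM. The synthesis enzymes Gclc, Gclm and Gss were not called.

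Among genes of protein production and turnover most calls were rises, but few were left in a test against 1.5-fold. In that test 4 translation factors rose. The proteasome, tRNA synthetase, ribosome-making and endoplasmic reticulum lists kept 1 rise each. Of 33 translation factors 18 rose and 1 fell (median 0.63; 11 rose without 7-day replicate 3). Besides Eef1a1 these included Eef2 from 861 ± 311 to 1526 ± 149.7 CPM, Eif4a1 from 257 ± 61.1 to 520.4 ± 53.4 CPM and Eif4ebp1, the brake on Eif4e, from 4.18, 2.35 and 2.12 CPM to 8.66, 16.9 and 12.3 CPM. The member that fell was Eef1a2, the elongation factor form of neurons and muscle, from 122, 109 and 95.2 CPM to 69.5, 64.2 and 86.2 CPM, and its call was lost without sham replicates 1 (adjusted p = 0.0779) or 2 (0.0607), or 7-day replicates 1 (0.131) or 2 (0.205). None of 36 proteasome subunits fell and 11 rose (median 0.47), led by Psmb8, an immunoproteasome subunit, from 13.4, 3.62 and 6.9 CPM to 24.2, 39.9 and 29.4 CPM. The count of risen proteasome genes was 22 without sham replicate 1 and 7 without 7-day replicate 2 or 3. Of 23 tRNA synthetase genes 7 rose and none fell (median 0.41; 4 without 7-day replicate 3), with Rars from 52.9, 37 and 38.9 CPM to 81.6, 84.3 and 110.1 CPM. Of 35 genes of ribosome making 6 rose and none fell (median 0.41; 10 rose without sham replicate 1), among them the nucleolar proteins Ddx21 from 62.6, 49.5 and 69.9 CPM to 134, 115 and 136 CPM and Npm1 from 172 ± 54.2 to 356 ± 20.9 CPM. Of 26 folding and export genes of the endoplasmic reticulum 6 rose and none fell (median 0.40; 18 rose without sham replicate 1), with Edem1, which marks misfolded proteins for removal, from 54.9, 47 and 42.7 CPM to 122, 142 and 139 CPM. The chaperone Hspa5 was at 654 ± 297 CPM in sham and 925 ± 90.6 CPM at 7 days and was not called. The ATF4 list of the integrated stress response gave 3 rises and 5 falls of 24 (median 0.28). Atf3, Atf4 and Ddit3 fell, Atf3 from 781 ± 605 to 178 ± 20.7 CPM. Cth, which makes cysteine, went from 6.14, 7.42 and 9.74 CPM to 0.315, 0.219 and 0.405 CPM, while the stress protein Nupr1 rose from 3.21, 2.35 and 2.18 CPM to 10.6, 8.54 and 7.98 CPM. The ATF4-list falls numbered 8 without sham replicate 2 and 3 without any of the 7-day replicates, and the rises 6 without sham replicate 1.

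**Figure D5:**
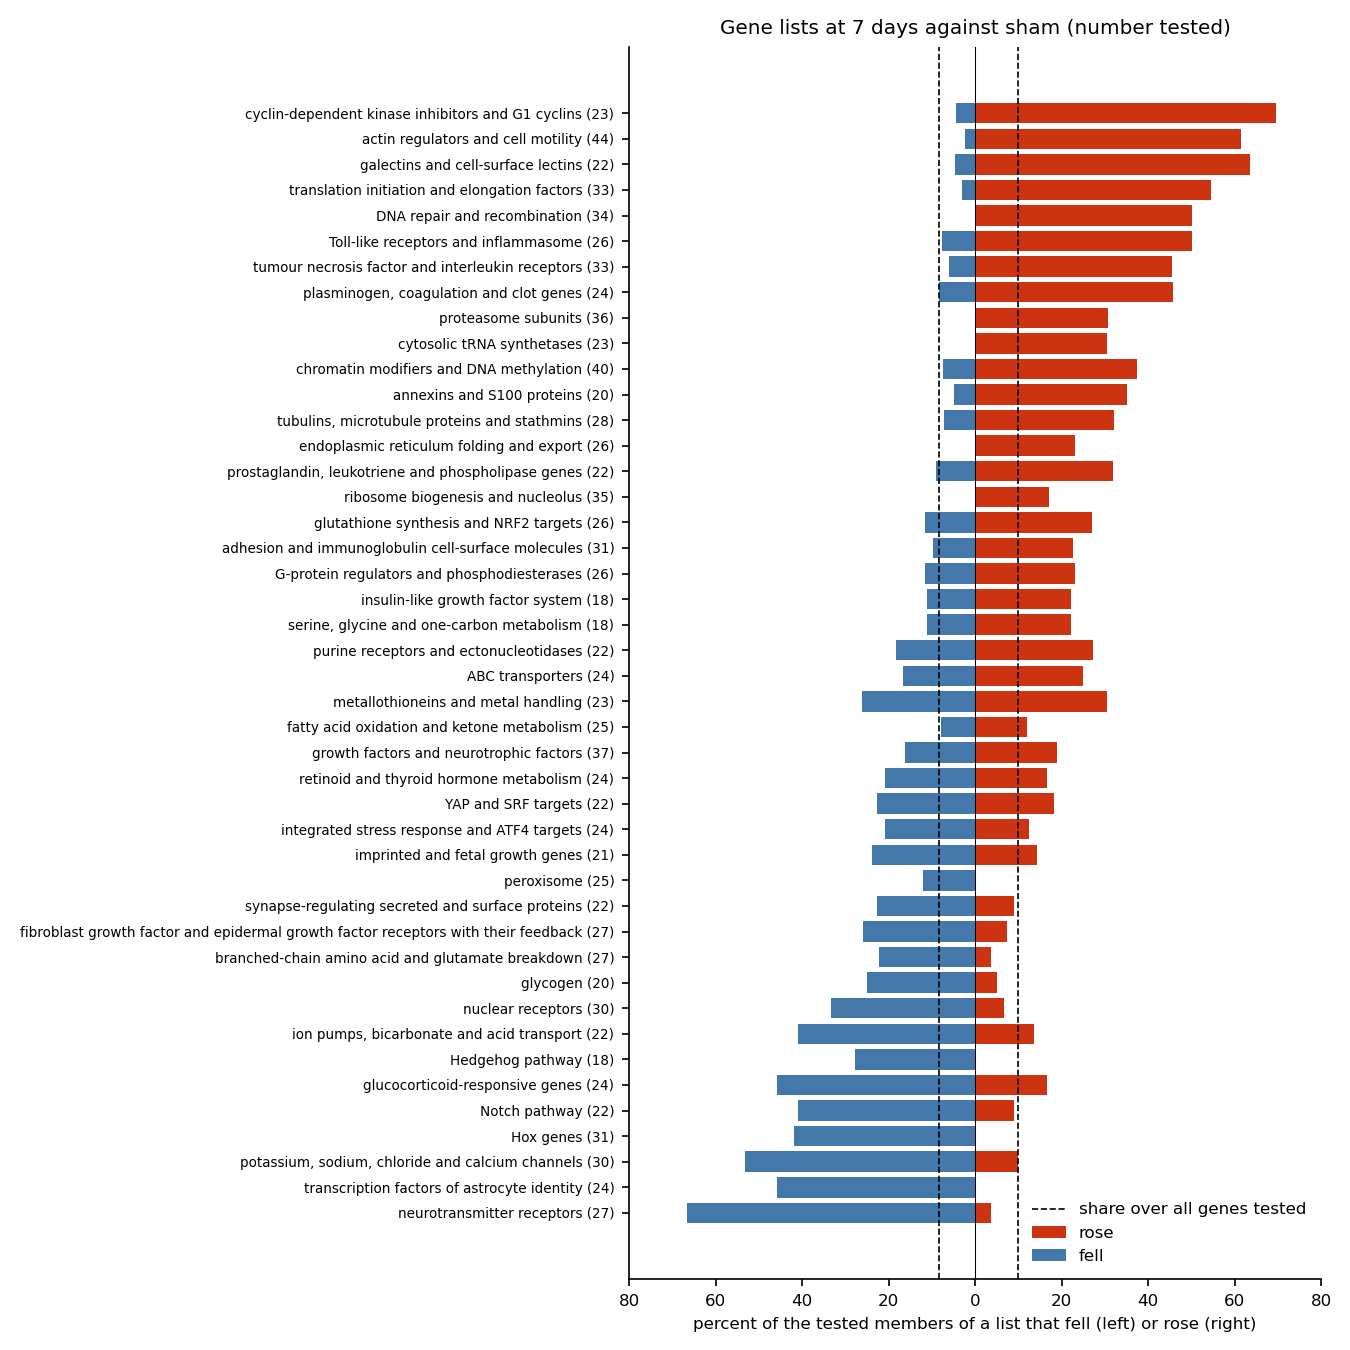
Percent of the tested members of each of the 44 gene lists that rose (red, right) or fell (blue, left) at 7 days against sham, with the number tested in brackets and dashed lines at the shares over all genes, 9.87% and 8.41%. Cyclins and kinase inhibitors, lectins and actin genes reached past 60% risen, and transmitter receptors past 60% fallen.

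Of 44 genes of the actin skeleton 27 rose and 1 fell (median 0.89; 17 rose in a test against 1.5-fold). The branching complex Arp2/3 rose in Arpc1a, Arpc1b, Arpc2, Arpc3 and Arpc5, with Arpc1b from 47.9 ± 39.2 to 321 ± 36.5 CPM. Lcp1 (L-plastin), an actin bundler of leukocytes, went from 54.5, 15.2 and 7.32 CPM to 154, 247 and 181 CPM, and Rac2 and Coro1a, also of leukocytes, rose from 6.35 ± 2.3 to 29 ± 5.68 CPM and 27 ± 17 to 67.9 ± 11.7 CPM. Members found in most cells rose too: Tmsb4x from 365 ± 154 to 1791 ± 229.8 CPM, the cofilin Cfl1 from 509.6 ± 149 to 1077 ± 183 CPM, moesin Msn from 161 ± 53 to 470.3 ± 39.7 CPM and the non-muscle myosin Myh9 from 147 ± 10.3 to 397 ± 43.5 CPM. Actb and Actg1 were not called, and Actb was at 1595 ± 352 CPM in sham and 2178 ± 288 CPM at 7 days. Ezr (ezrin), the linker of fine astrocyte processes, was the member that fell, from 353, 190.0 and 202 CPM to 114, 117 and 129 CPM.

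Tubulins gave 9 rises and 2 falls of 28 (median 0.29). The growth-linked forms Tubb5, Tubb6, Tubb3 and Stmn1 rose, Tubb5 from 272 ± 117 to 767 ± 100.4 CPM and Stmn1 from 55.8 ± 24.8 to 272 ± 55.8 CPM, and Tuba1c rose from 11.6, 3.62 and 6.05 CPM to 39.1, 46.1 and 46.2 CPM. Tuba4a fell from 31, 30.5 and 24.8 CPM to 6.27, 4.85 and 5.93 CPM, and 37.3% of its exons are overlapped by Stk16 on the opposite strand. Of 22 YAP and SRF targets 4 rose and 5 fell (median -0.07; 3 fell without 7-day replicate 2). Cyr61, a matrix protein and early YAP target, went from 1269, 448 and 1382 CPM to 199, 138 and 177 CPM, with sham replicate 2 the lowest of the sham libraries. Axl, a receptor for dying cells, rose from 117, 106 and 112 CPM to 239, 293 and 300.3 CPM. Among 20 annexins and S100 proteins 7 rose and 1 fell (median 0.44; 4 rose without each of the 3 seven-day replicates). Anxa3 rose from 27.3, 11.2 and 5.93 CPM to 88.8, 107 and 97.1 CPM and S100a6 from 30.3 ± 22.7 to 114 ± 16.1 CPM, and Anxa11 fell from 105, 61.8 and 56.2 CPM to 27.6, 34 and 37.8 CPM.

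Lectins, the sugar-binding proteins of the cell surface, had the highest median of the 44 lists, 2.16: of 22 tested 14 rose and 1 fell. Galectins Lgals1 and Lgals3 rose from 13.9 ± 10.2 to 158 ± 12.7 CPM and 17.2 ± 8.34 to 106 ± 25.7 CPM, and Siglec1, the sialic acid receptor of macrophages, from 2.32 ± 0.404 to 74.3 ± 25.5 CPM. Clec4d and Clec4e, receptors for dead cells and mycobacterial lipids, had 0 counts in all sham libraries. Such members could pass the count filter only through injured libraries, so the count and median of this list favour rises. Clec4d reached 4.66, 7.26 and 6.29 CPM at 7 days, at least 48.3-fold higher, and Clec4e a mean of 4.56 CPM, at least 36.3-fold higher. Siglech, a marker of resident microglia, was at 20.7 ± 17.5 CPM in sham and 8.75 ± 1.58 CPM at 7 days and was not called. Lgals4 fell from 4.37, 14.7 and 12 CPM to 3.72, 4.08 and 1.91 CPM, a call lost without any of sham replicates 2 and 3 or the 3 seven-day replicates (adjusted p from 0.0539 to 0.143).

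Genes of clotting and clot removal rose in 11 of 24 and fell in 2 (median 1.27). The plasminogen activator Plau rose from 10.4 ± 1.86 to 63.3 ± 14.8 CPM and its receptor Plaur from 3.9 ± 2.46 to 21.6 ± 3.23 CPM, while Plat was at 112 ± 35.4 CPM in sham and 116 ± 11.1 CPM at 7 days and was not called. Vwf, a vessel marker, rose from 17.1 ± 8.11 to 121 ± 8 CPM, and the clot cross-linker F13a1, made by macrophages, from 3.16 ± 2.68 to 30 ± 5.1 CPM. Tissue factor F3, which starts clotting and is made by astrocytes, fell from 163, 205 and 243 CPM to 90.4, 69.3 and 84 CPM. Of 31 adhesion molecules 7 rose and 3 fell (median -0.08; 4 rose without 7-day replicate 2). Cd44, the hyaluronan receptor, rose from 9.51, 5.23 and 26.4 CPM to 95.5, 103 and 86.8 CPM and the tetraspanin Cd9 from 503 ± 173 to 1365 ± 71.4 CPM. Hepacam, which holds astrocytes to each other, fell from 396, 318 and 289.7 CPM to 119, 108 and 124 CPM.

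Growth factor genes gave 7 rises and 6 falls of 37 (median -0.05; 3 fell without 7-day replicate 2). Igf1, made by activated phagocytes, was at 0.437, 0 and 2.97 CPM in sham and 97.4, 129.6 and 79 CPM at 7 days (ENSMUSG00000020053.18, chromosome 10, 87858265 to 87937042). The groups lay far apart, and sham replicate 2 had no count (log2 change 6.76, SE 0.74, adjusted p = 1.6e-05). Igf2 rose from 12.4 ± 3.65 to 137 ± 39.4 CPM, Hgf from 0.229 ± 0.396 to 7.74 ± 4.47 CPM, Osm from 1.84 ± 2.13 to 22.9 ± 6.27 CPM and Csf1, the survival factor of microglia, from 62.8 ± 15.2 to 165 ± 8.85 CPM. Vegfa, the vessel growth factor, fell from 225, 351 and 288 CPM to 56.8, 50.9 and 56.6 CPM, and Fgf1 fell from 39.3 ± 2.21 to 9.21 ± 2.1 CPM. Bdnf was at 6.54 ± 3.9 CPM in sham and 4.75 ± 1.13 CPM at 7 days and was not called. The wider insulin-like growth factor system gave 4 rises and 2 falls of 18 (median 0.25). Igfbp7 rose from 15.9 ± 13 to 123 ± 19.6 CPM, Igfbp2 fell from 57.5 ± 7.92 to 19.6 ± 1.04 CPM, and the protease Htra1 fell from 689, 516 and 392 CPM to 91.7, 89.6 and 99.3 CPM. Of 21 imprinted genes 3 rose and 5 fell (median -0.25). H19, a long non-coding RNA of fetal tissue beside Igf2, went from 1.37, 0.671 and 0 CPM to 20.4, 43.3 and 23.2 CPM. It was at 2.32, 0.857 and 2.97 CPM at 1 month, and the difference of 7 days from 1 month was called (log2 difference 3.82, adjusted p = 0.012, edgeR). Cdkn1c rose from 12.8 ± 6.05 to 43.9 ± 7.34 CPM, and Meg3, Peg3, Plagl1, Zim1 and Nnat fell, Meg3 from 6.18, 19.9 and 13.9 CPM to 4.35, 2.77 and 2.74 CPM.

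Genes of cell-cycle entry and genome upkeep rose in many members. Of 23 cyclin-dependent kinase inhibitors and G1 cyclins 16 rose and 1 fell (median 1.00; 7 rose in a test against 1.5-fold). Cyclins and inhibitors rose in the same libraries: Ccnd1 from 273 ± 36.4 to 531 ± 88.3 CPM and Ccne1 from 4.21 ± 1.6 to 10.5 ± 0.611 CPM, beside Cdkn1a (p21) from 66.3 ± 21.5 to 115 ± 13.5 CPM and Cdkn2c from 31.3 ± 9.87 to 101 ± 14.4 CPM. Cdkn2a, the senescence locus, went from 1.22, 0 and 0 CPM to 3.78, 5.67 and 7.53 CPM, a call lost without 7-day replicate 3 (adjusted p = 0.0567). Ccnd2, the D cyclin of glial progenitors, fell from 246, 179 and 131 CPM to 84.2, 75.6 and 93 CPM. Of 34 DNA repair genes 17 rose and none fell (median 0.72). The Fanconi gene Fancd2 rose from 3.13 ± 1.97 to 25.6 ± 3.77 CPM and Brca1 from 9.11 ± 2.24 to 28.2 ± 6.67 CPM, whereas the damage kinases Atm and Atr were not called. Of 40 chromatin genes 15 rose and 3 fell (median 0.29). Those that rose included Uhrf1, which guides DNA methylation at replication, from 23.8 ± 8.28 to 75 ± 5.59 CPM, Dnmt1 from 86.8 ± 6.17 to 172 ± 13.6 CPM, Ezh2 from 32.4 ± 5.33 to 70.4 ± 1.18 CPM and Hmga2, a fetal chromatin protein, from 0.437, 0.705 and 0 CPM to 7.18, 5.23 and 7.34 CPM. Hdac11, a deacetylase of differentiated glia and neurons, fell from 64, 38.5 and 41.9 CPM to 14.9, 16.2 and 24.8 CPM.

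Many receptors of innate immunity and of cytokines rose in the libraries in which microglia and macrophage markers were also higher, as given above. Of 26 Toll-like receptor and inflammasome genes 13 rose and 2 fell (median 1.61). Tlr8, a sensor of single-stranded RNA, went from 0.499, 0.537 and 0.666 CPM to 9.64, 19.7 and 8.81 CPM, Tlr2 rose from 19.8 ± 15.3 to 176 ± 11.9 CPM, Cd14 from 23.5 ± 24.9 to 231 ± 27.2 CPM and Nlrp3 from 17.1 ± 7.37 to 86.3 ± 3.45 CPM. Tlr3, the double-stranded RNA sensor that astrocytes express, fell from 48.9, 56 and 56.5 CPM to 21.6, 20.9 and 15.8 CPM, and Il18 fell from 41.7 ± 7.24 to 15.3 ± 0.776 CPM. Of 33 receptors for tumour necrosis factors and interleukins 15 rose and 2 fell (median 0.96). Il1r1 rose from 2.93, 0 and 1.27 CPM to 24.4, 24 and 17.5 CPM and the oncostatin receptor Osmr from 4.78 ± 5 to 44.6 ± 6.73 CPM. Its partner Il6st was at 399.6 ± 90.1 CPM in sham and 365 ± 19.3 CPM at 7 days and was not called, and the leukaemia inhibitory factor receptor Lifr fell from 115 ± 38.1 to 69.2 ± 7.66 CPM. Fas fell from 26.4, 19.2 and 41.9 CPM to 13.3, 14.8 and 12.3 CPM. Its call was lost without sham replicate 3 (adjusted p = 0.0707) or 7-day replicates 1 (0.0558), 2 (0.05) or 3 (0.0798), and against 1.5-fold (0.12).

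Prostaglandin and leukotriene genes gave 7 rises and 2 falls of 22 (median 0.95). Ptgs2, the inducible cyclooxygenase, went from 10.5, 5 and 1.51 CPM to 76.2, 80.4 and 60 CPM (log2 change 3.63, SE 0.47, adjusted p = 6.8e-05). The haematopoietic synthase Hpgds rose from 12.3 ± 5.12 to 51.1 ± 19.6 CPM and Alox5ap from 7.19 ± 3.62 to 29.6 ± 8.03 CPM, and Pla2g7 fell from 280.0, 387 and 289 CPM to 66.7, 73.9 and 67.1 CPM. The rises numbered 12 without sham replicate 1 and 4 with any of sham replicate 2, 7-day replicate 2 and 7-day replicate 3 left out. Purine receptors and ectonucleotidases gave 6 rises and 4 falls of 22 (median 0.28), with P2ry6, the uridine receptor of phagocytes, from 9.61, 1.74 and 4.06 CPM to 24.5, 27.2 and 29.7 CPM. G-protein regulators and phosphodiesterases gave 6 rises and 3 falls of 26 (median -0.14), with Rgs1 from 13, 1.07 and 5.33 CPM to 71.9, 106 and 54.8 CPM and Rgs6 from 22, 30.3 and 10.5 CPM to 3.9, 3.86 and 3.69 CPM. ABC transporters gave 6 rises and 4 falls of 24 (median 0.09). The cholesterol exporter Abca1 rose from 240.0 ± 54.3 to 909 ± 137 CPM, Abcb1a (P-glycoprotein), of brain vessels, from 14.8 ± 11.1 to 83.3 ± 3.22 CPM and Abcc3 from 17.6, 6.27 and 4.66 CPM to 49.7, 77.3 and 58.1 CPM, and Abcb9 fell from 13.7, 18.2 and 36.5 CPM to 3.4, 2.03 and 2.52 CPM. The falls among G-protein regulators were 6 without sham replicate 1, and those among ABC transporters were 7 without sham replicate 1, 2 without sham replicate 3, 2 without 7-day replicates 1 or 3 and 1 without 7-day replicate 2.

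Markers of other cell types include genes with wide change of their own. Col1a1, a fibroblast collagen, went from 12.8, 36.9 and 117 CPM to 1313, 1111 and 1181 CPM. Sham replicate 3 was the highest sham library for it and still lay below all injured ones. Cdh5, the cadherin of endothelium, went from 8.55, 5.2 and 1.82 CPM to 44.5, 53.9 and 50.9 CPM, Gldn, of Schwann cells and oligodendrocytes, from 0.655, 0 and 2.54 CPM to 19, 37 and 24.1 CPM, and the tight-junction gene Cldn11 from 30.5, 0 and 17.4 CPM to 276, 246 and 279.6 CPM. At 1 month Cldn11 was at 29, 25.5 and 30.1 CPM and the difference from 7 days was not called (adjusted p = 0.058, edgeR). Cldn11 also lost its call against sham under robust empirical Bayes (adjusted p = 0.0718). Tubb3, used as a neuron marker, rose from 56.2, 17.3 and 40.6 CPM to 117, 122 and 133 CPM, while the neuron markers Gad1 and Snap25 fell, Gad1 from 19.2, 56.7 and 32 CPM to 7.62, 8.08 and 6.05 CPM. Gjb6, connexin 30 of astrocytes, fell from 193, 234 and 173 CPM to 6.2, 3.89 and 2.81 CPM. Pdgfra, a marker of oligodendrocyte precursors, fell from 2152, 2663 and 2133 CPM to 1587, 1499 and 1843 CPM, and its call was lost without sham replicate 2 (adjusted p = 0.0744) or 7-day replicates 1 (0.144), 2 (0.228) or 3 (0.0622).

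At the extremes, 18 genes had 0 counts in all sham libraries and at least 1 CPM in every 7-day library, and 16 of them were coding. Apart from those named above they included Fabp4, the fatty acid binding protein of fat cells, vessels and macrophages (mean 3.37 CPM at 7 days), the T cell co-receptor Cd28 (3.58 CPM), Trem1 of myeloid cells (2.56 CPM), the endothelial tip-cell gene Esm1 (2.27 CPM) and the nicotinic receptor subunit Chrna3 (1.39 CPM). Of the 18, 1 (Gm36161) was not called. In the other direction 8 genes, 5 of them coding, had at least 1 CPM in every sham library and 0 counts at 7 days, among them Aqp6, Hoxd10 and Hoxd11. Genes in these last sentences were chosen by their values.

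Zeb2 and its antisense RNA Zeb2os, the genes the series is about, both rose. Zeb2, a transcription factor of glia and myeloid cells, was at 189, 140.2 and 244 CPM in sham and 434, 409 and 289 CPM at 7 days (log2 change 0.98, SE 0.20, adjusted p = 0.0028), with no overlap but a sham replicate 3 close to 7-day replicate 3. It was not called against 1.5-fold (adjusted p = 0.0859). Zeb2os went from 13, 8.66 and 17.9 CPM to 26, 26.5 and 23.2 CPM, a call lost without 7-day replicates 1 (adjusted p = 0.0513) or 2 (0.0601). Its call was also lost with the 2 groups fitted alone (adjusted p = 0.0576) and against 1.5-fold (0.195). Zeb2 exons cover 32.8% of the exonic bases of Zeb2os, and without a stated strand setting reads from the overlap cannot be assigned to either. The same doubt holds for other genes named here whose exons overlap a gene on either strand, such as Hoxa11 with Hoxa11os (35.0%), Ctsd with Gm49369 (34.4%), Hes5 with Gm20421 (31.8%), Spp1 with Gm42793 (18.8%), Slc7a10 with Lrp3 (17.9%) and Car14 with Aph1a (17.5%). Larger overlaps were those of Nrarp with Gm38287 (79.4%), Mt2 with Gm45774 (73.5%) and Igf2 with Gm49394 (62.8%). Genes with near-identical copies, such as the alpha tubulins, metallothioneins, ferritins, Npm1, Eef1a1 and the thymosins, are uncertain in the same way.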

How the data were processed

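RNA was measured by sequencing in cells sorted from the spinal cord. The authors deposited 1 table of whole-number read counts per gene for the sorted cells, not normalised. The submitters' processing notes name mm10, TopHat2 2.1.0, Cufflinks 2.2.1, FastQC and DESeq2 without saying what each did. How reads were assigned to genes, with which annotation and strand setting, is not given in the sources used here. A strand-marking kit was used, per the labels. The members and lists were chosen with earlier results of these data known. All 11 sorted libraries (sham, 7 days, 1 month, 3 months) entered 1 fit so that the groups share an estimate of spread: edgeR 4.0.16 in R 4.3.3, filterByExpr at a minimum count of 10, TMM scaling, quasi-likelihood F test, Benjamini-Hochberg adjusted p under 0.05. CPM use TMM-scaled totals, and SE is the log2 change divided by the square root of F. The common biological coefficient of variation was 63.0%. Genes named are the 15 largest rises and 15 largest falls among coding genes in no list, at 5 CPM or more and without overlap of libraries, the 10 most abundant called genes changed at least 2-fold, the largest rise and fall of each list, Gfap, Zeb2 and Zeb2os, and list members as examples of a role. Some genes that these rules pick are not reported here. For genes at 0 in a group, folds are bounds against 3 counts per library. Bounds cover counting error only. Coordinates and exon overlaps are from GENCODE M21 (GRCm38), to which 20981 of 21033 tested Ensembl identifiers matched; 3253 other identifiers were not matched. Alternatives used DESeq2 1.42.0 and limma 3.58.1 among others. The labels say that each library pooled 3 mice, not how libraries were spread over days. Replicate numbers were not taken as pairing the samples.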

Additional observations from a re-analysis of the deposited data

How the results depend on the processing

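The numbers of genes that rose and fell (2398 and 2042) stayed within 1.5 times under other scalings, filters and tools, from 1774 and 1721 with the 2 groups fitted alone to 3039 and 2871 with the DESeq2 Wald test. The test against a 1.5-fold change left 1131 rises and 1019 falls. Leaving out each library in turn gave 1686 to 3326 rises and 1181 to 2178 falls; the falls were 1181 without 7-day replicate 2 and 1355 without 7-day replicate 3. The cause was not tested. Deviations of same-numbered sham and 7-day libraries from their group means had correlations of -0.044, 0.017 and 0.045, so the numbers were not taken as pairing; with a replicate block 2374 genes rose and 1928 fell. The share of calls that rose was 50.7 to 60.4% over all settings, 54.0% as reported, and no scaling moved the median log2 change by more than 0.1. Of 129 genes named by rule, 108 kept their call in every setting and 21 lost it in at least 1; none changed direction. Sham replicate 3, at 15.7 M counts, limits low genes most: 3 counts were 0.182 CPM there and 0.0715 CPM in the deepest 7-day library. With a coefficient of variation of 63.0%, a gene that was not called may still differ.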

Other observations

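The protein genes of the mitochondrial genome, a set chosen after the values were seen, fell in 8 of 12 tested and rose in none (median -1.29), against 8.41% fallen among all genes. They encode subunits of the respiratory chain and of ATP synthase. mt-Nd5 went from a mean of 2621 to 924 CPM, mt-Nd2 from 2455 to 752 CPM and mt-Co1 from 10137 to 6143 CPM, with adjusted p of 0.00017, 0.00038 and 0.017 from edgeR's quasi-likelihood test. Levels within the genome were uneven in both groups: mt-Atp6, mt-Co2 and mt-Co3 averaged 10.1, 19.9 and 5.20 CPM in sham, although mt-Co1 lies close by. Reads shared with nuclear copies of mitochondrial genes cannot be assigned with certainty.

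Of 22 tested subunits of the vacuolar proton pump, also chosen after their values were seen, 3 rose (13.6%) and none fell (median 0.39). Over all genes 9.87% rose. The share of the pump subunits was close to that of coding genes, of which 2283 of 16298 rose. Besides Atp6v0d2 the subunits that rose were Atp6v1a, from 158.6 to 255 CPM (adjusted p = 0.0086), and Atp6v1c1, from 58.1 to 90.2 CPM (adjusted p = 0.012), both by edgeR. Atp6v0d1, the widely expressed relative of Atp6v0d2, had means of 107 and 139 CPM and was not called (adjusted p = 0.31).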
